A study of Mus musculus with 4 samples.

Results

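The variable (V) segments of the immunoglobulin light chains were examined by family in the RNA of polarized WT and Mek1/2-tKO CD4+ T cells. All genes whose symbol begins with Igkv or Iglv and a digit were taken, which gave 163 of the 54752 genes in the count files. They comprised 160 kappa segments in 20 families and 3 lambda segments in 3 families, the family being the first number of the symbol. Mek1/2-tKO mice carried Cd4-Cre and floxed alleles of Map2k1 and Map2k2 (Cd4-Cre+, Map2k2 fl/fl and Map2k1 fl/fl, C57BL/6 background), so that MEK1 and MEK2 were deleted in T cells, where the Cd4 promoter drives Cre, and WT mice served as controls. In both genotypes, CD4+ T cells of the spleen were obtained with a bead kit for naïve cells. They were stimulated through CD3 and CD28 under Tfh conditions with IL-6 and antibodies that block TGF-β, IL-4, IFN-γ and IL-2, and viable cells were re-sorted for RNA on day 3. Each genotype had 2 libraries. The age of these mice, and whether the libraries of a genotype came from separate mice, are not given in the sources used here, so the p values measure the spread between these libraries, which may be technical.

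A light chain is encoded by a V segment that has been joined to a joining (J) segment by the RAG recombinase in a developing B cell, and the spliced transcript continues into a constant gene. In the mouse the kappa locus holds many V segments and a single constant gene, Igkc, whereas the lambda locus holds few V segments and several constant genes. Iglv1 is used mainly with Iglc1 and Iglc3, and Iglv2 and Iglv3 mainly with Iglc2. T cells rearrange T-cell receptor genes, not light-chain genes, so light-chain V transcripts are known as products of B cells and plasma cells.

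The libraries held 16330802 to 18931090 counts. The light-chain V segments took 4990 and 5120 counts in WT (0.0265 and 0.0272% of the library) and 32096 and 33322 counts in Mek1/2-tKO (0.197 and 0.176%). The T-cell label was read against markers of several cell types. The 10 T-cell markers summed to 2590 to 2606 CPM (counts scaled to library size by the TMM method) in WT and to 2375 to 2544 CPM in Mek1/2-tKO. Of these 10, 1 was called higher (Thy1) and 4 lower (Cd3e, Cd4, Cd28 and Trac), and Cd4, the marker of the label, had 293 ± 5.35 CPM in the former and 21.9 ± 4.48 CPM in the latter (SD, n = 2). The 12 B-lineage markers summed to 1266 to 1286 CPM in WT and to 6921 to 6970 CPM in Mek1/2-tKO, and 12 of 12 were called higher, none of them being at 0. Of 7 plasma-cell markers 6 were tested, with 2 called higher (Jchain and Mzb1) and 1 lower (Irf4), and Tnfrsf17 was at 0 in both WT libraries. The 6 myeloid markers summed to 3.33 to 3.83 CPM in WT and to 18.1 to 21.9 CPM in Mek1/2-tKO, with 4 of the 4 tested called higher and Adgre1 and S100a8 at 0 in WT. The 5 NK-cell markers summed to 70.1 to 71.7 CPM in WT and to 463 to 501 CPM in Mek1/2-tKO, with 5 of 5 called higher. The summed B-lineage, myeloid and NK-cell levels were higher in the same libraries as the light-chain V total. The plasma-cell sums overlapped (827 to 843 CPM in WT, 812 to 877 CPM in Mek1/2-tKO), but their members moved in opposite directions. Irf4 alone gave 577 and 549 CPM in WT and 186 and 209 CPM in Mek1/2-tKO. Jchain rose from 4.67 and 3.63 to 105 and 88.7 CPM, and Mzb1 from 60.7 and 48.9 to 302 and 256 CPM. Sdc1, Xbp1 and Prdm1 were not called. The part of all these cells in the results was not tested. In RNA from bulk cells, a change in the number of cells of a type and a change of RNA per cell cannot be told apart. Of the targeted genes, Map2k1 fell by 0.86 on the log2 scale (adjusted p = 1.29e-06 by edgeR's quasi-likelihood test), whereas the log2 fold change of Map2k2 was 0.15 (adjusted p = 0.126), and a count over the whole gene does not show whether the floxed exons were present.

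The sequences that the results turn on are the 3 lambda segments, which were the families called in usage, and 2 pairs of kappa segments. Each is the last 290 bases of the annotated V transcript, 5′ to 3′, from GENCODE M21 (GRCm38). Capitals in Iglv1 and Iglv2 mark the 7 of 290 positions at which these segments differ from each other (97.6% identity). Capitals in Iglv3 mark the bases not matched in Iglv1, with 55.3% identity over 320 aligned columns, gaps included. Iglv1 lies at chr16:19085017-19085306, Iglv2 at chr16:19260401-19260690 and Iglv3 at chr16:19241207-19241496, all on the minus strand.
Iglv1: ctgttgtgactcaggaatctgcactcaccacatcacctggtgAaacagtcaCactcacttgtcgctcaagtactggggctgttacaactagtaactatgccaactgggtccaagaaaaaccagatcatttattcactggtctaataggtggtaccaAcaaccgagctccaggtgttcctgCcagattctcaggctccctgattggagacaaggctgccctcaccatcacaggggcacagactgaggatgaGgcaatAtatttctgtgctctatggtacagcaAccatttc
Iglv2: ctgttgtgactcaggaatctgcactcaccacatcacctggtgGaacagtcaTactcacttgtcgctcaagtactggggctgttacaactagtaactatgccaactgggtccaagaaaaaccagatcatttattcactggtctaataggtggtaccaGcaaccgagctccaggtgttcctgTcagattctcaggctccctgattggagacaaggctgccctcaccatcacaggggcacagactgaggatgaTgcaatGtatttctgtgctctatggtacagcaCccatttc
Iglv3: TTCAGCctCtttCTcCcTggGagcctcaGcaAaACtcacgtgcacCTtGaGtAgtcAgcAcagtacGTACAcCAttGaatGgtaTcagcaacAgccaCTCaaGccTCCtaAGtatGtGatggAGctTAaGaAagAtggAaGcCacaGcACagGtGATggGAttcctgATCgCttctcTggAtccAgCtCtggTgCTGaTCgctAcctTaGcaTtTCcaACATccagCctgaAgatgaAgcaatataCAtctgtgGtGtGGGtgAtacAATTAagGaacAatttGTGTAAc

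Igkv1-117 (chr6:68121538-68121827, plus strand) and Igkv1-110 (chr6:68270978-68271267, plus strand) are shown because they took the largest shares among the kappa segments. Capitals mark the 9 of 290 positions at which they differ (96.9% identity).
Igkv1-117: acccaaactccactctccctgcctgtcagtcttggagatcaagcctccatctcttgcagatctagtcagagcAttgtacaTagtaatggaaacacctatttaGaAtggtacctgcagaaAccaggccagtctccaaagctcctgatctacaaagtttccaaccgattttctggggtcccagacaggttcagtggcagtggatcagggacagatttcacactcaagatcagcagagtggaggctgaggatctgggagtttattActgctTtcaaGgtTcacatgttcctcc
Igkv1-110: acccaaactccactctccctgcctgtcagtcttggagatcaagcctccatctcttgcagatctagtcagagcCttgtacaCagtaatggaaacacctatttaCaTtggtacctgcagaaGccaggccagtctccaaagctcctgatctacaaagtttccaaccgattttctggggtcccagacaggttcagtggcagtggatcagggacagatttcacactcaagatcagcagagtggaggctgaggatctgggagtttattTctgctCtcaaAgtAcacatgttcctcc

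Igkv4-86 (chr6:68910411-68910700, minus strand) and Igkv4-91 (chr6:68768555-68768844, minus strand) are members of 1 family whose usage moved in opposite directions. Capitals mark the bases without an identical partner, with 80.6% identity over 299 aligned columns.
Igkv4-86: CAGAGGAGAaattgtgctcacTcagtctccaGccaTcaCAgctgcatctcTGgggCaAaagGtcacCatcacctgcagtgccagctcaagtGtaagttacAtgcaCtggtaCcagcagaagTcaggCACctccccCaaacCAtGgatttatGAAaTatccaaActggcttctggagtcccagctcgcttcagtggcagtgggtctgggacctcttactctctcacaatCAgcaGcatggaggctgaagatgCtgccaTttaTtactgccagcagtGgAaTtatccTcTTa
Igkv4-91: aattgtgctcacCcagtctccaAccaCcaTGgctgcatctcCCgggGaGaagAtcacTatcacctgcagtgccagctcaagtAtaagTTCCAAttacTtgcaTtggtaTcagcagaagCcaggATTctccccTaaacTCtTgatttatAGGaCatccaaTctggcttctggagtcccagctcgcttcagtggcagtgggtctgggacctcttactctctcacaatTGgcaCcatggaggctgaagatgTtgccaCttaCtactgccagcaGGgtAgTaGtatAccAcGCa

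Because only uniquely mapped reads were counted, the share of 75-base stretches of a segment that occur in no other light-chain V segment was computed. It was 100% for Iglv3 and Igkv4-91, 94.3% for Igkv4-86, 90.5% for Iglv1, 91.1% for Iglv2, 69.1% for Igkv1-117 and 68.8% for Igkv1-110. Of the 93 segments tested below, 33 were unique in this sense along their whole length. The share was under 50% in 2, namely Igkv6-20 (40.5%) and Igkv6-29 (48.6%). The split of counts between such near copies is uncertain. Transcripts of other genes were not searched, so these shares do not show whether a stretch also occurs elsewhere.

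The level of the light-chain V segments was compared first. It was higher in Mek1/2-tKO than in WT for all segments summed, for kappa and lambda each, and for every family that could be tested. All segments together had 256 and 265 CPM in the WT libraries and 2071 and 1773 CPM in the Mek1/2-tKO libraries, a log2 fold change of 2.89 with a standard error (SE) of 0.09 (adjusted p = 2.39e-11, edgeR's quasi-likelihood test, Benjamini-Hochberg adjusted). In WT the kappa segments summed to 236 and 247 CPM, and in Mek1/2-tKO to 1761 and 1540 CPM, a log2 fold change of 2.78 (SE 0.09). For lambda the sums were 19.9 and 18.3 CPM in WT against 310 and 233 CPM in Mek1/2-tKO, a log2 fold change of 3.83 (SE 0.13, adjusted p = 6.45e-11 by edgeR's quasi-likelihood test). In each sum both Mek1/2-tKO libraries stood above both WT libraries.

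**Figure D1:**
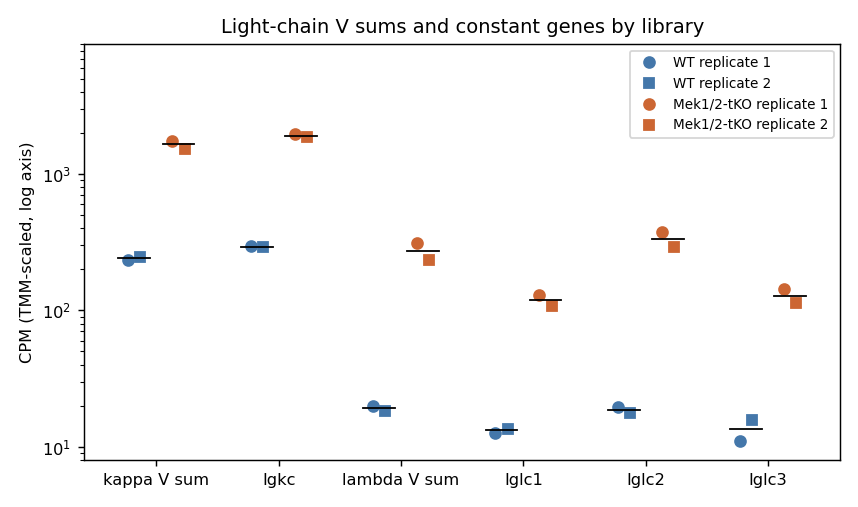
CPM of the kappa V sum, the lambda V sum and the constant genes Igkc, Iglc1, Iglc2 and Iglc3 in each library (log axis; points, libraries; bars, means of n = 2). The Mek1/2-tKO libraries lie above the WT libraries in all 6 groups, with the kappa V sum at 1540 to 1761 against 236 to 247 CPM and the lambda V sum at 233 to 310 against 18.3 to 19.9 CPM.

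Of the 163 segments, 93 passed the filter on low counts and were tested, and 92 of these were called higher in Mek1/2-tKO (1.5-fold or more, with an adjusted p under 0.05) and 0 lower, by edgeR's quasi-likelihood test as by DESeq2, and 0 were lower at an unadjusted p under 0.05. Over all 14330 genes tested, 19.3% were called higher and 16.4% lower. The median log2 fold change of the tested segments was 2.87, or 2.86 with Igkv6-29 at the bound given below, beside 0.02 for all genes tested. The filter could be passed through the Mek1/2-tKO libraries alone, and 64 of the 93 had at least 10 counts in both WT libraries. The 1 segment not called was Igkv10-95, with 22 and 8 counts in WT and 16 and 26 in Mek1/2-tKO, a log2 fold change of 0.65 (adjusted p = 0.402 by edgeR's quasi-likelihood test). The segment was named after its values were seen. Of the 70 segments not tested, 39 had no count in any library, and all 39 were annotated as pseudogenes. The other 31 had at most 28 counts in a library and summed to 13 and 19 counts in WT against 97 and 123 in Mek1/2-tKO. The 60 pseudogenes together took 0.261 and 0.469% of the light-chain V counts in WT and 0.414 and 0.408% in Mek1/2-tKO, and the genotypes overlapped.

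The largest rises among called segments whose average log2 CPM was not below 0 were those of Igkv9-123, Igkv4-86 and Igkv4-54. Igkv4-86 had 10 and 21 counts in WT and 536 and 524 in Mek1/2-tKO, a log2 fold change of 5.27 (SE 0.27), which was 5.91 without WT replicate 2. Igkv9-123 had 0 and 3 counts in WT and 59 and 83 in Mek1/2-tKO, and Igkv4-54 had 0 and 3 in WT and 49 and 32 in Mek1/2-tKO, so both folds rest on very few WT counts. Igkv6-29 had 0 counts in both WT libraries and 14 and 16 in Mek1/2-tKO. With 3 counts allowed in each WT library and the Mek1/2-tKO counts taken as exact, its mean was at least 5.67-fold higher in Mek1/2-tKO. This bound covers the counting error of WT only. The smallest rises among called segments were those of Igkv4-91 (1.60), Igkv4-63 (1.61) and Igkv3-4 (1.93, all log2). Igkv4-91 had 107 and 110 counts in WT and 287 and 290 in Mek1/2-tKO. Members of the Igkv4 family thus stood at both ends of the range.

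**Figure D2:**
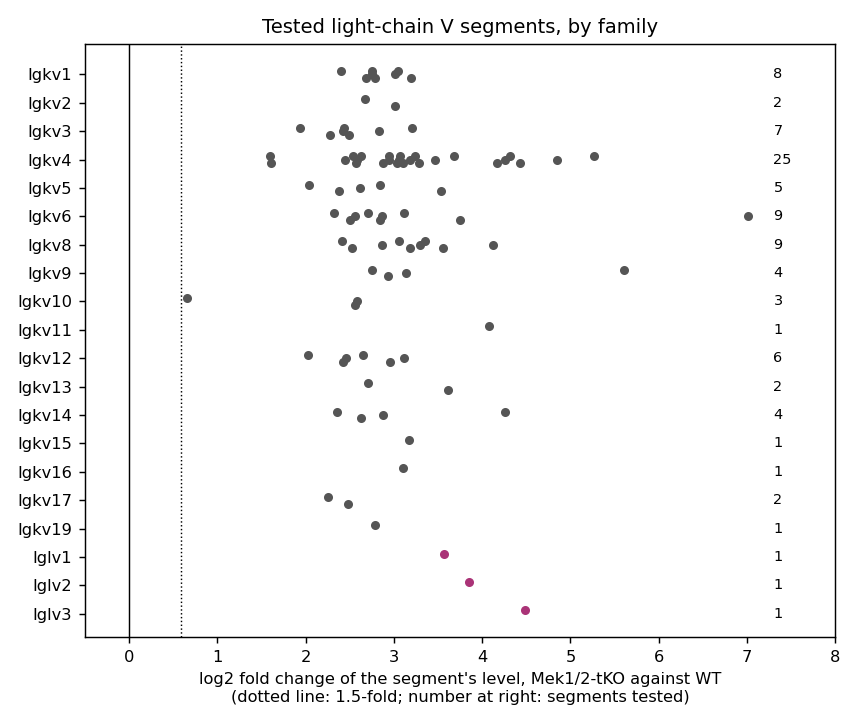
Log2 fold change of the level of each of the 93 tested segments, arranged by family (grey, kappa; purple, lambda; dotted line, 1.5-fold). All points lie right of the dotted line; the lowest is Igkv10-95 at 0.65, which did not pass the test, and the point at 7.01 is Igkv6-29, which had no count in WT, so that its fitted value is no bound.

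The families were then summed, and 20 of 23 could be tested. All 20 were called higher and 0 lower in edgeR's test and in DESeq2 (0 lower at an unadjusted p under 0.05 in edgeR), where 19.1% of the 14257 rows of that table were called higher and 16.3% lower. The log2 fold changes of the kappa families ran from 2.36 for Igkv17 to 3.45 for Igkv11. Those of the lambda families were 3.58 for Iglv1, 3.85 for Iglv2 and 4.49 for Iglv3. Igkv11 had only 5 and 12 counts in WT, its standard error was 0.49, and its value was 4.21 without WT replicate 2. The families not tested were Igkv7 (0 and 0 counts in WT, 6 and 28 in Mek1/2-tKO), Igkv18 (2 and 0, then 6 and 16) and Igkv20 (2 and 1, then 4 and 2), each with a single segment. A count of 0 in WT allows a share of up to 0.0601 and 0.0586% of the light-chain V counts.

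Usage was measured as the share of a library's light-chain V counts, which takes out the overall rise. The lambda segments took 7.796 and 6.895% in WT (exact binomial 95% intervals 7.07 to 8.57 and 6.22 to 7.62%) and 14.96 and 13.12% in Mek1/2-tKO (14.6 to 15.4 and 12.8 to 13.5%). The mean share rose from 7.35 ± 0.637 to 14.0 ± 1.30% (SD, n = 2) and the libraries did not overlap, but with 2 libraries a genotype the exact permutation test cannot go below p = 0.333, which is the value it gave (two-sided). Intervals cover counting error only. In edgeR's quasi-likelihood fit of the family counts scaled to the light-chain V total, 3 families were called higher and 0 lower, with 3 lower at an unadjusted p under 0.05. The 3 called were Iglv1, Iglv2 and Iglv3. On that scale 0.989% of all rows were called higher and 93.2% lower, since most genes did not rise with the light-chain V total. The adjustment over these rows therefore changed p little and hardly corrects for the number of families. The spread in this fit was estimated over all rows scaled in this way, not from the family shares alone. Standard errors were wider than in the fit of levels (Igkv1 0.16 against 0.1, Igkv3 0.17 against 0.1). A family that was not called is thus not shown to be unchanged in usage.

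Iglv1 took 5.29 and 4.49% of the light-chain V counts in WT and 8.54 and 7.15% in Mek1/2-tKO. Its usage rose by 0.68 on the log2 scale (SE 0.18, adjusted p = 2.93e-04, edgeR's quasi-likelihood test). Iglv2 took 1.12 and 1.21% in WT and 2.42 and 2.13% in Mek1/2-tKO, a usage log2 fold change of 0.96 (SE 0.26, adjusted p = 2.69e-04 by edgeR's quasi-likelihood test). Iglv3 took 1.38 and 1.19% in WT and 3.997 and 3.838% in Mek1/2-tKO, a usage log2 fold change of 1.61 (SE 0.23, adjusted p = 1.11e-10 by edgeR's quasi-likelihood test). The near-identical sequences Iglv1 and Iglv2 and the dissimilar Iglv3 all rose in usage, but the call of Iglv1 was lost without WT replicate 2 (0.57) and without Mek1/2-tKO replicate 1 (0.55). Within the lambda segments, the count ratio of Iglv3 to Iglv1 was 0.261 and 0.265 in WT and 0.468 and 0.537 in Mek1/2-tKO. That of Iglv3 to Iglv2 was 1.23 and 0.984 in WT and 1.65 and 1.80 in Mek1/2-tKO. Neither ratio overlapped between genotypes.

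**Figure D3:**
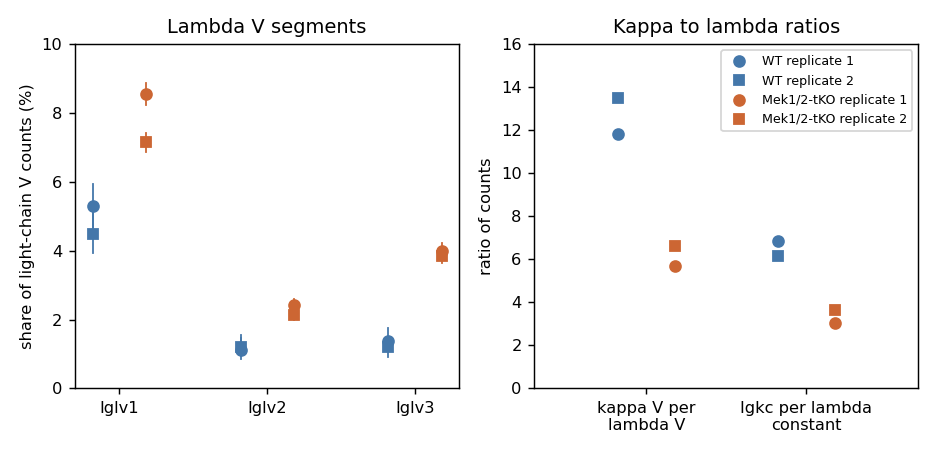
Left, share of light-chain V counts taken by Iglv1, Iglv2 and Iglv3 in each library (lines, exact binomial 95% intervals); right, count ratios of kappa to lambda V segments and of Igkc to the lambda constant genes. Each lambda segment took a larger share in both Mek1/2-tKO libraries, with Iglv3 at 3.84 to 4.00% against 1.19 to 1.38%, and both ratios were lower there.

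The constant genes were counted apart from the V segments and moved in the same direction. Igkc (chr6:70726435-70726966) had 296 and 292 CPM in WT, against 1958 and 1859 CPM in Mek1/2-tKO, a log2 fold change of 2.70 (SE 0.08). Iglc1 rose by 3.18, Iglc3 by 3.26 and Iglc2 by 4.15 on the log2 scale. Iglc4, with 0 and 6 counts in WT and 9 and 19 in Mek1/2-tKO, did not pass (adjusted p = 0.0596 by edgeR's quasi-likelihood test). The lambda constant genes took 12.8 and 14.0% of the light-chain constant counts in WT and 24.9 and 21.6% in Mek1/2-tKO. The ratio of kappa to lambda V counts was 11.8 and 13.5 in WT and 5.68 and 6.62 in Mek1/2-tKO, and that of Igkc to the lambda constant genes was 6.85 and 6.17 in WT and 3.02 and 3.63 in Mek1/2-tKO. The count ratio of Iglc2 to Iglc1 was 1.53 and 1.31 in WT and 2.87 and 2.68 in Mek1/2-tKO. Iglv2 and Iglv3 together had 0.3289 and 0.3596 counts per count of Iglc2 in WT and 0.356 and 0.365 in Mek1/2-tKO, so that here the genotypes overlapped. Iglv1 had 0.570 and 0.406 counts per count of Iglc1 and Iglc3 in WT and 0.646 and 0.574 in Mek1/2-tKO. That ratio was higher in Mek1/2-tKO without overlap, although WT replicate 1 and Mek1/2-tKO replicate 2 all but met.

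Among the kappa families, shares of the light-chain V counts differed less. Over the 20 tested families, 8 had a higher share in both Mek1/2-tKO libraries than in both WT libraries, 7 had a lower one and 5 overlapped. Over all rows scaled in the same way, 1.91% were higher without overlap and 94.7% lower. The lower shares were those of Igkv3, Igkv5, Igkv6, Igkv10, Igkv12, Igkv14 and Igkv17. Igkv3 took 8.86 and 8.57% in WT and 5.91 and 6.44% in Mek1/2-tKO, a usage log2 fold change of -0.50 (adjusted p = 0.00529 by edgeR's quasi-likelihood test). Igkv17 took 5.29 and 4.63% in WT and 3.51 and 3.37% in Mek1/2-tKO, a usage log2 fold change of -0.53 (adjusted p = 0.00776 by edgeR's quasi-likelihood test). Igkv12 took 6.17 and 6.50% in WT and 4.81 and 4.90% in Mek1/2-tKO (-0.38, adjusted p = 0.0397 and unadjusted p = 0.0374 by edgeR's quasi-likelihood test). These 3 families passed the threshold on p and not that on fold, and were not called; without WT replicate 2, Igkv17 was (-0.62). The kappa families with a higher share were Igkv4, Igkv8, Igkv13, Igkv15 and Igkv16. Igkv4 took 10.2 and 11.3% in WT and 11.8 and 12.5% in Mek1/2-tKO, with an adjusted p of 0.271, and none of these 5 passed edgeR's quasi-likelihood test. Igkv1 took 16.4 and 14.0% in WT and 14.4 and 14.7% in Mek1/2-tKO and overlapped, as did Igkv2, Igkv9, Igkv11 and Igkv19. When the kappa V counts alone were the denominator, 8 of the 17 tested kappa families were higher without overlap, 7 lower and 2 overlapped (Igkv1 and Igkv19), where 2.09% of all rows on that scale were higher without overlap and 94.4% lower, and 0 were called either way by edgeR's test (0 higher and 2 lower at an unadjusted p under 0.05).

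**Figure D4:**
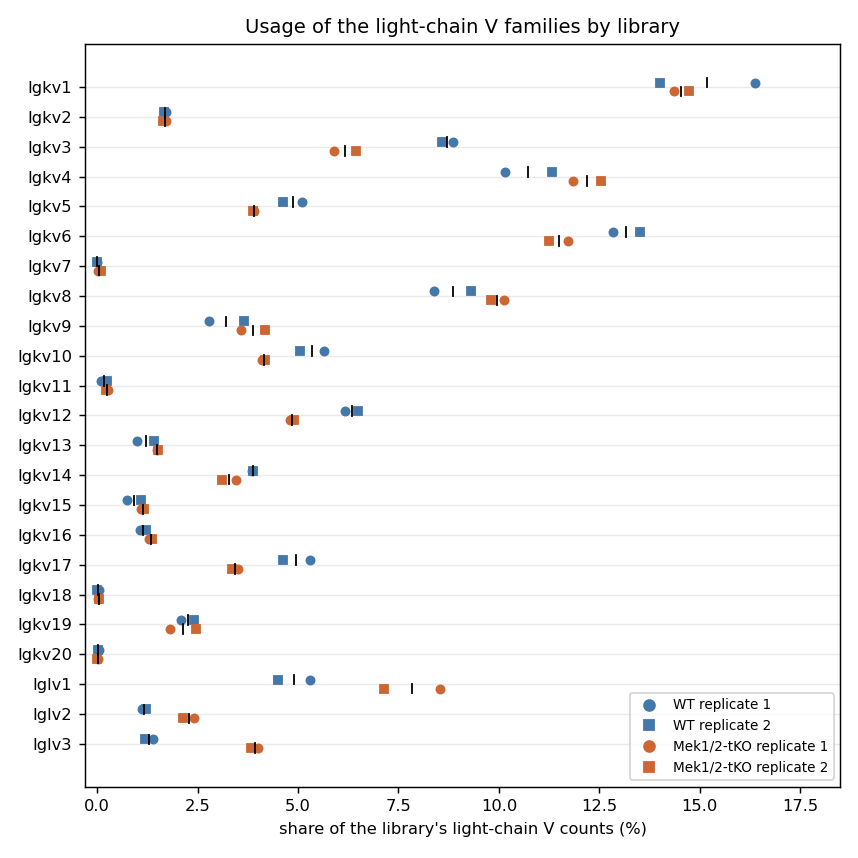
Share of each library's light-chain V counts taken by each of the 23 families (circles and squares, replicates 1 and 2; black bars, means of n = 2). The 3 lambda families lie further right in Mek1/2-tKO, Igkv3, Igkv12 and Igkv17 lie further left, and Igkv1 overlaps at 14.0 to 16.4%.

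Single segments were compared per length. The largest shares of light-chain V counts per kilobase of exon, over the 4 libraries, were those of Iglv1 (6.06%), Igkv1-117 (5.74%), Igkv1-110 (4.34%), Igkv10-96 (3.62%) and Igkv6-15 (3.07%). These are means over both genotypes. In counts, Igkv1-117 lay above Iglv1 in both WT libraries and below it in both Mek1/2-tKO libraries. Igkv1-117 took 6.61 and 6.70% of the counts in WT and 5.627 and 5.996% in Mek1/2-tKO. Igkv1-110 took 5.15 and 4.61% in WT and 4.28 and 4.67% in Mek1/2-tKO. The share of Igkv1-117 was thus lower in Mek1/2-tKO without overlap and that of Igkv1-110 overlapped, although a near copy can trade counts with the other. The 15 segments with the highest mean shares took 48.5 and 45.9% of the light-chain V counts in WT and 47.6 and 46.9% in Mek1/2-tKO. Besides the 5 named and Iglv3, they were Igkv1-135, Igkv9-120, Igkv6-32, Igkv6-17, Igkv17-127, Igkv19-93, Igkv6-23, Igkv3-4 and Igkv14-111, and all 15 were called higher in level, with log2 fold changes of 1.93 (Igkv3-4) to 4.49 (Iglv3).

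Within a family the segments differed in their rise and in how far 1 of them led. In Igkv1 the log2 fold changes of the 8 tested segments ran from 2.40 to 3.19, in Igkv3 those of 7 from 1.93 to 3.20 and in Igkv4 those of 25 from 1.60 to 5.27. Igkv10-96 took 75.5% of the Igkv10 counts in Mek1/2-tKO, Igkv9-120 69.0% of the Igkv9 counts, Igkv14-111 56.3% of the Igkv14 counts and Igkv1-117 39.97% of the Igkv1 counts. In Igkv4 the segment with the most counts, Igkv4-86, took 13.3%, while Igkv15, Igkv16 and Igkv19 rested on 1 segment each with counts in the tested range (Igkv15-103, Igkv16-104 and Igkv19-93).

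To leave the lambda rise aside, the 90 tested kappa segments were also scaled to the kappa V total, an analysis added after the data were seen. In edgeR's quasi-likelihood fit 11 were called higher in usage and 5 lower, where 1.17% of all 14330 rows were called higher and 92.4% lower. With most rows called, the adjustment hardly corrects for the number of kappa segments. In that test the adjusted p was 0.0497 for Igkv12-98, 0.0462 for Igkv4-92, 0.0410 for Igkv11-125, 0.0281 for Igkv6-29 and 0.0271 for Igkv4-54. Those calls are the least secure. Igkv4-86 took 10 and 21 of the kappa V counts in WT and 536 and 524 in Mek1/2-tKO, a kappa usage log2 fold change of 2.51 (SE 0.34, adjusted p = 1.03e-13 by edgeR's quasi-likelihood test), or 3.11 without WT replicate 2. Igkv4-91 fell by 1.17 in kappa usage on the log2 scale (SE 0.26, adjusted p = 7.13e-06 by edgeR's quasi-likelihood test), from 2.33 and 2.31% of the kappa V counts to 1.05 and 1.00%. Igkv3-4 fell by 0.84 (adjusted p = 3.28e-04 by edgeR's quasi-likelihood test), from 3.07 and 2.73% to 1.56 and 1.67%. The others called higher were Igkv6-29, Igkv9-123, Igkv4-54, Igkv4-55, Igkv4-92, Igkv4-74, Igkv11-125, Igkv4-57, Igkv13-85 and Igkv8-27, and the others called lower were Igkv10-95, Igkv4-63 and Igkv12-98. Of these, 5 of the 11 and 4 of the 5 had at least 10 counts in every library. The filter could be passed through the Mek1/2-tKO libraries alone. A segment near 0 in WT thus entered only where its Mek1/2-tKO counts were higher, which tilts the 11 against 5 towards higher calls. Among the Igkv4 calls, Igkv4-54 (0 and 3 counts in WT), Igkv4-92 (4 and 2) and Igkv4-74 (16 and 6) were under 10 in a WT library. Igkv4, the family with the most segments (33, of which 25 were tested), gave 6 of the 11 higher and 2 of the 5 lower. Of the 16 calls, 9 were lost without at least 1 of the 4 libraries, and the 11 became 6 without Mek1/2-tKO replicate 1. Igkv12-98 had 19 and 57 counts in WT, and without WT replicate 2 its value was 0.24 in place of -0.73.

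**Figure D5:**
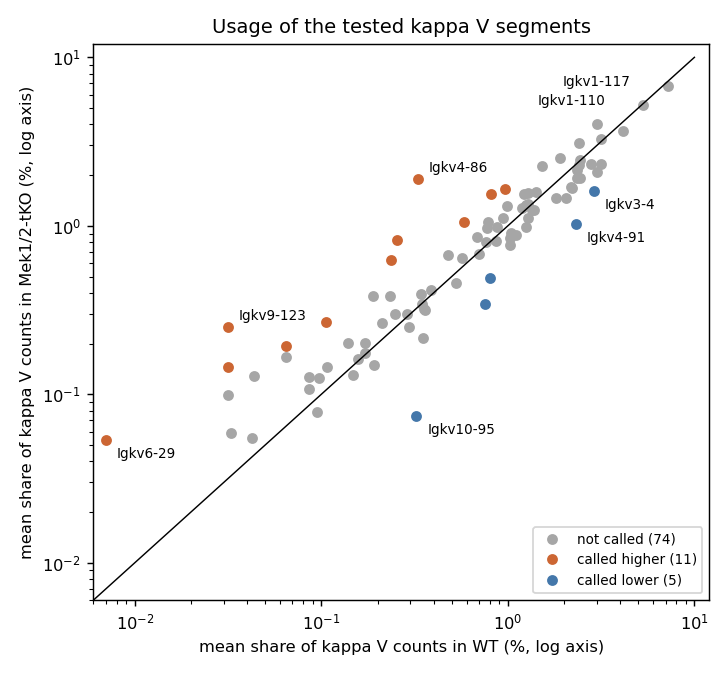
Mean share of the kappa V counts in WT and in Mek1/2-tKO (n = 2 each, log axes) for the 90 tested kappa segments; the line marks equal shares, and Igkv6-29, with no count in WT, is drawn at the left edge. Most segments lie near the line, with Igkv4-86 above it (2.51 in log2 usage) and Igkv4-91 (-1.17) and Igkv3-4 (-0.84) below it.

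The evenness of usage was described by the effective number of segments, the exponential of the Shannon entropy of the shares. It was 55.0 and 56.4 in WT and 56.1 and 57.9 in Mek1/2-tKO, and the genotypes overlapped (exact permutation p = 0.667, two-sided). Over the kappa segments alone it was 53.4 and 54.4 in WT and 58.5 and 58.9 in Mek1/2-tKO, without overlap. The effective number of families was 14.0 and 14.4 in WT and 14.85 and 14.97 in Mek1/2-tKO, also without overlap. At least 10 counts were found on 72 and 69 segments in WT against 94 and 95 in Mek1/2-tKO, libraries that held more light-chain V counts. Thinned to 4990 counts, 96.0 and 96.9 segments were expected with a count in WT and 103 and 103 in Mek1/2-tKO. The largest share of a single segment was 6.61 and 6.70% in WT (Igkv1-117) and 8.54 and 7.15% in Mek1/2-tKO (Iglv1).

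Position and orientation were taken from the coordinates in the count files. The kappa segments lie between 22.6 and 3171 kb from Igkc, 75 on its strand and 85 on the opposite strand, where joining to J inverts the DNA between them. Segments on the strand of Igkc took 48.5 and 47.0% of the kappa V counts in WT and 45.1 and 44.7% in Mek1/2-tKO, so that the libraries did not overlap, with a difference of means of -2.80 percentage points. By distance, the 40 segments nearest to Igkc took 34.23 and 35.16% of the kappa V counts in WT and 34.15 and 33.19% in Mek1/2-tKO. The nearest libraries of the genotypes thus all but met, and the difference of means was -1.03 percentage points beside SDs of 0.655 and 0.679. The 40 farthest took 33.0 and 31.7% in WT and 33.0 and 33.1% in Mek1/2-tKO and overlapped.

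The other genes of the light-chain pathway were read in the same fit. Of 9 joining segments 6 were tested and 5 called higher, with log2 fold changes of 1.68 (Igkj5) to 3.03 (Igkj2), and Igkj1 did not pass (2.00, adjusted p = 0.0613 by edgeR's quasi-likelihood test). The surrogate light chain, which pairs with the heavy chain in precursor B cells, was not tested: Vpreb2 and Igll1 were at 0 in all libraries, and Vpreb1 had at most 6 counts. Rag2 was at 0 in every library and Rag1 had 0 counts in WT and 2 in each Mek1/2-tKO library, both coding for the recombinase. Dntt, which adds bases at the joints, had 12, 14, 12 and 0 counts and did not pass. All 4 receptor partners were called higher, with log2 fold changes of 2.17 for Ighm, 3.43 for Cd79a, 3.68 for Ighd and 3.73 for Cd79b. These 4 are also among the 12 B-lineage markers above and are no separate observation. Over all genes tested in this fit, 19.3% were called higher. Of 7 regulators of the light-chain loci, Spi1 (2.33), Spib (2.09) and Ikzf3 (1.36) were called higher. Irf4, which binds light-chain enhancers with the product of Spi1 or Spib, fell by 1.51 on the log2 scale (adjusted p = 4.19e-09 by edgeR's quasi-likelihood test), from 577 and 549 CPM to 186 and 209 CPM. Irf8, Pou2f2 and Pou2af1 were not called.

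The V counts were set against other immunoglobulin counts of the same library. Light-chain V counts per light-chain constant count were 0.755 and 0.781 in WT and 0.795 and 0.748 in Mek1/2-tKO, so that V and constant counts kept the same proportion within the spread of the libraries. Per heavy-chain V count there were 2.29 and 2.20 light-chain V counts in WT and 2.98 and 2.55 in Mek1/2-tKO. Per count of the 12 B-lineage markers there were 0.199 and 0.210 in WT and 0.297 and 0.256 in Mek1/2-tKO. Lambda V counts per B-lineage count were 0.0155 and 0.0145 in WT and 0.0445 and 0.0336 in Mek1/2-tKO. Kappa V counts per B-lineage count were 0.183 and 0.195 in WT and 0.253 and 0.223 in Mek1/2-tKO. Each of these last 4 ratios was higher in both Mek1/2-tKO libraries, with p = 0.333 in an exact permutation test, the smallest this design allows. The B-lineage sum leans on Ighm, with 13557 and 12926 counts in WT and a log2 fold change of 2.17. Light-chain V as a whole rose by 2.89. Cr2 (3.00), Cd79a (3.43), Ighd (3.68), Cd79b (3.73) and Fcrla (6.17) rose more. The other B-lineage markers rose less, by 1.02 (Pax5) to 2.76 (Blk), so the direction of that ratio depends on the marker.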

How the data were processed

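RNA-seq read counts of 2 WT and 2 Mek1/2-tKO libraries were analysed. The authors trimmed the reads (Trimmomatic 0.36), mapped them to GRCm38 (the mapper is written as STRA), counted the reads that mapped uniquely on each gene by featureCounts (Subread 1.5.1) and deposited the raw counts, with no normalization. Neither the annotation release nor whether strand was used in counting is given in the sources used here, so reads of overlapping antisense genes cannot be told apart; 1 of the 163 segments shares exons with another gene. Symbols came from GENCODE M21, in which all 163 segments matched, and 53861 of the 54752 identifiers matched with the same coordinates.

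Library totals ran from 16330802 to 18931090 counts, and a count of 0 allows up to 3 counts (0.154 to 0.194 CPM), which covers counting error only. Genotypes were compared in R 4.3.3 by the quasi-likelihood test of edgeR 4.0.16 (robust fit, genes kept by filterByExpr, TMM scaling), with p adjusted over all rows by the Benjamini-Hochberg method. A call needed an adjusted p under 0.05 and a fold of 1.5 or more. Family and chain sums replaced their members in the same table, and usage was fitted with the light-chain V or kappa V total as library size. Shares, ratios and diversity were compared by exact permutation tests. Members, lists and tests were chosen with earlier results of these data known. Segments were named by rule: all lambda segments, the 15 highest mean shares, the 3 largest and 3 smallest rises among called segments whose average log2 CPM was not below 0, every segment called lower and the highest count of each family, summed over the 4 libraries. Alternatives were DESeq2 1.42.0, DESeq2's size factors, library size alone, other filters, a replicate block, other denominators and leaving out each library. Promoters and recombination signals of the segments were not analysed here. Python 3.11.15, pandas 2.3.3, scipy 1.17.1, Biopython 1.88 and matplotlib 3.10.9 were used.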

Additional observations from a re-analysis of the deposited data

How the results depend on the processing

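The levels held under every alternative run. Between 88 and 92 segments were called higher when 1 library was left out, 92 with DESeq2, DESeq2's size factors, library size alone or a replicate block, 94 without a filter and 64 with at least 10 counts in every library, and 0 were called lower. The log2 fold change of all light-chain V counts ran from 2.78 to 2.98 without 1 library and was 2.89 with a replicate block and 2.79 by library size alone. Deviations of libraries with the same number correlated at -0.0242, so no shared shift of such libraries was seen. Whether they were prepared together is not given in the sources used here. The replicate block changed no call of a family or sum.

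With kappa V counts as the denominator the lambda families were left out, and 0 of the 17 kappa families were called higher in usage. With 1 library left out, the usage log2 fold change ran from 0.55 to 0.81 for Iglv1 and from 0.87 to 1.05 for Iglv2. It ran from 1.50 to 1.72 for Iglv3 and from -0.62 to -0.43 for Igkv17 in these same fits. Kappa segments called higher in usage numbered 6 to 11 and those called lower 4 to 5. The difference in effective segments was -0.705 when segments under 10 counts in a library were left out, in place of 1.26, and that in segments expected at equal depth was -7.91e-04, in place of 6.73, as each library then held every segment kept. Without 1 library the usage value of Igkv1 ran from -0.17 to 0.05, that of Igkv19 from -0.32 to 0.12 and that of Igkv2 from -0.03 to 0.04, and the kappa denominator turned Igkv1 to 0.05 and Igkv19 to 0.02. In kappa usage Igkv12-98 ran from -1.29 to 0.24. The cause was not tested in these cases. Of 707 values of single families and segments under an alternative, 679 kept direction and side of the thresholds. The 4990 and 5120 light-chain V counts of WT limit the smaller shares, and 2 libraries a genotype limit each comparison.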
